A study of Mus musculus with 6 samples.

Results

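The genes described here are 10 core genes of the noncanonical NF-kB pathway: Map3k14, Nfkb2, Relb, Chuk, Traf1, Traf2, Traf3, Birc2, Birc3 and Otud7b. They were taken by symbol from the count tables, where all 10 are present among 24015 listed genes, and all 10 passed the filter on low counts that left 12729 genes for testing. RNA sequencing had been done on 6 mouse libraries of sorted leukaemia stem and progenitor cells, labelled LSPC (untreated, 3 libraries) and LSPCT (tamoxifen-treated, 3 libraries). They were taken once the acute myeloid leukaemia was fully developed. Its driver was MLL-AF9, an oncoprotein that fuses part of a histone methyltransferase to part of a transcriptional elongation factor. The leukaemia was made from lineage-negative, c-Kit-positive bone marrow progenitors of NIKERT2 mice, a cross of Rosa-loxp-STOP-loxp-NIK with Rosa-CreERT2. Both groups therefore carry MLL-AF9, the blocked NIK transgene and the tamoxifen-dependent Cre recombinase CreERT2, and they differ by tamoxifen, after which Cre can remove the stop. No group received tamoxifen without the transgene, so drug, Cre activity and NIK cannot be told apart. The Rosa locus, which carries both constructs, is active in most cell types and is not restricted to leukaemia cells. The sources used here do not give the dose and timing of tamoxifen, the age of the mice or the markers of the sort.

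NIK, the NF-kB inducing kinase encoded by Map3k14, is the central kinase of the noncanonical pathway. In resting cells it is made and destroyed continuously: TRAF3 binds it, TRAF2 bridges TRAF3 to the ubiquitin ligases cIAP1 and cIAP2 (genes Birc2 and Birc3), and the complex marks NIK for the proteasome. When a receptor such as CD40, BAFF receptor or lymphotoxin beta receptor recruits this complex, NIK accumulates and activates IKK-alpha (gene Chuk), which phosphorylates p100 (gene Nfkb2). Partial digestion of p100 yields p52, which enters the nucleus with RelB and binds kB sites. The pathway is best known for B cell survival and lymphoid organ formation. Much of its control lies in protein stability, which counts of RNA do not measure.

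Total counts ran from 19999071 to 26773176 per library, and a count of 0 allows up to 3 counts, 0.111 to 0.15 CPM, for counting error only. The labels do not tie each library to its own mouse, and p-values then cover only the variation among these libraries, which may be technical. CPM is the count as a rate of the library total, scaled by the trimmed mean of M values (TMM). All 10 markers of leukaemic progenitors were detected, and Kit stood at 117 to 194 CPM over the 6 libraries. The summed level of the list was 10465 to 12487 CPM untreated and 4110 to 5689 CPM with tamoxifen. Of the 10, 4 fell and none rose. The granule genes Mpo, Elane, Prtn3 and Ctsg made up most of this sum. Mpo went from 2940 to 4080 CPM untreated to 75.7 to 372 CPM with tamoxifen, whereas Cd34 stood at 150 to 200 and 199 to 264 CPM. The summed level of 8 macrophage markers was 77.8 to 105 CPM untreated and 556.9, 180.2 and 226 CPM in tamoxifen replicates 1 to 3 (7 of 8 rose). Emr1 made up most of this sum in every library but tamoxifen replicate 1 (69.6 to 92.3 CPM untreated and 206, 142 and 147 CPM with tamoxifen). All 8 were highest in tamoxifen replicate 1, C1qa for example at 92.6 CPM, against 8.03 and 14.3 CPM in tamoxifen replicates 2 and 3. The B cell list summed to 41.4 to 46.0 CPM untreated and 27.5 to 51.5 CPM with tamoxifen, of which Cd79b made up most; its defining gene Pax5 was at 0 in all libraries and no member of it passed. Dendritic cell markers summed to 86.7 to 110.1 CPM untreated and 64.5 to 79.6 CPM with tamoxifen, with 1 of 5 tested rising and 1 falling. The lower sum came from Flt3, the most abundant gene of that list (79.1 to 104 CPM untreated and 32.96 to 46.1 CPM with tamoxifen). Itgax (3.60 to 21.3 and 25.4 to 33.6 CPM), Zbtb46, Xcr1 and Ccr7 were higher in every tamoxifen library than in any untreated one. Of these, Zbtb46 and Xcr1 reached at most 1.46 CPM. The groups were not separated for Clec9a, Siglech and Batf3, which reached at most 0.55 CPM. T cell markers summed to 22.4 to 25.9 CPM and 35.1 to 94.1 CPM, with 2 of 6 tested rising. Lck made up most of the T cell sum (12.6 to 13.3 and 20.1 to 54.5 CPM). NK cell markers, where Ncr1 was at 0, summed to 48.4 to 56.5 and 11.2 to 20.3 CPM (1 of 2 tested fell), erythroid markers, where Hba-a1 and Hbb-b1 were at 0, to at most 1.15 and 3.75 CPM (1 tested, not passed), and endothelial or stromal markers to 168 to 230.1 and 113 to 168 CPM (2 of 5 tested rose and 1 fell). Nkg7 made up most of the NK cell sum (46.6 to 55.4 and 9.19 to 19.4 CPM), and the other NK genes reached at most 1.72 CPM. Pecam1 was the largest part of the endothelial or stromal sum (125 to 162 and 53.0 to 82.2 CPM). By contrast, Col1a1 (2.19 to 3.18 and 4.83 to 13.5 CPM) and Col1a2 (3.18 to 3.26 and 8.64 to 12.8 CPM) were higher in every tamoxifen library. In bulk RNA, more or fewer cells of a type and more or less RNA per cell cannot be told apart, and the part of these markers in the results below was not tested beyond leaving out each library.

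Of the 10 core genes, 7 rose with tamoxifen, none fell and 3 did not pass (edgeR quasi-likelihood test, adjusted p under 0.05 over all genes tested). Over all 12729 genes, 17.2% passed by the same rule, 8.96% rising and 8.24% falling. The kinase gene, both transcription factor genes, Traf1, Traf2, Birc2 and Birc3 rose; Traf3, Chuk and Otud7b did not pass. At an unadjusted p under 0.05, 8 core genes were higher and 1, Otud7b, was lower, against 16% and 15.9% of all genes; DESeq2 called 8 higher (11.4% of all genes) and limma voom 6 (8.35%), and neither called a core gene lower. The median log2 difference of the 10 genes was 1.40, against -0.0025 over all genes tested. The CPM values of the groups did not overlap for 8 of the 10 genes, 7 higher and 1 lower with tamoxifen, where 37.7% of all genes tested did not overlap, 18.1% being higher and 19.6% lower. A required change above 1.5-fold (glmTreat) left 4 core genes as risen, against 3.30% of all genes. Leaving out 1 library left 6 to 8, against 4.46% of all genes without untreated replicate 1, 5.08% without untreated replicate 2 and 6.72% without untreated replicate 3. The shares were 12.8%, 6.94% and 6.34% without tamoxifen replicates 1, 2 and 3. The genes were chosen by their role in a pathway whose kinase the study switched on, with earlier results of these data known, so the count is a description of this list.

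**Figure D1:**
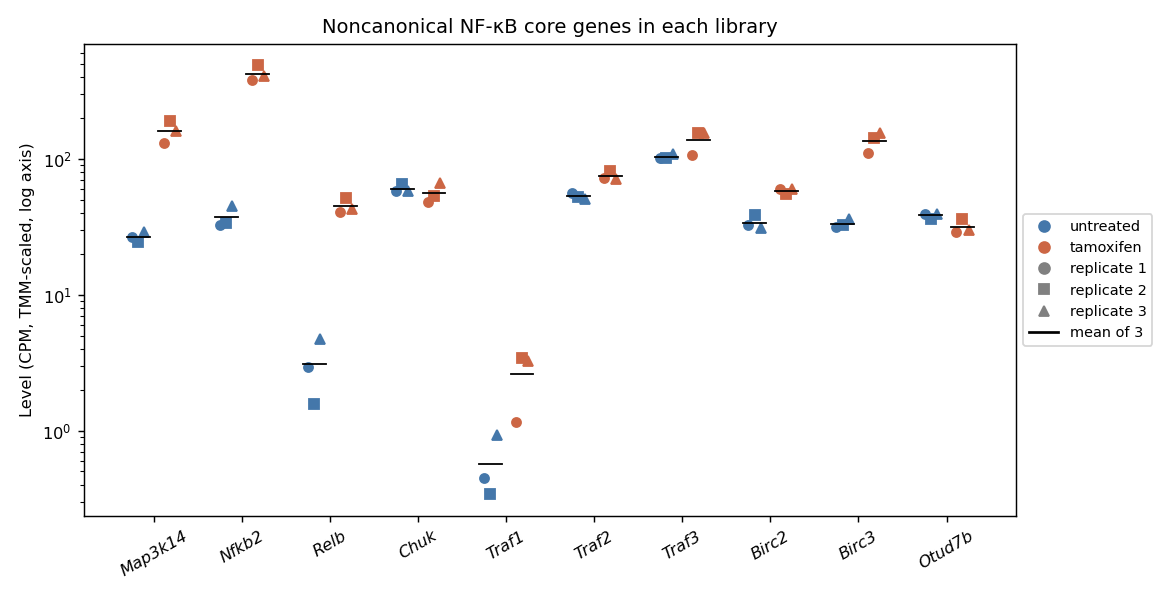
Level of each core gene in each library, in TMM-scaled CPM on a log axis, for 3 untreated (blue) and 3 tamoxifen libraries (orange); marker shapes give the replicate and black lines the mean of 3. Map3k14, Nfkb2, Relb and Birc3 lie at least 3.06 times higher in the lowest tamoxifen library than in the highest untreated one, whereas Chuk and Traf3 overlap between the groups.

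Map3k14, the gene of the kinase itself, was at 26.5, 24.2 and 28.8 CPM in untreated replicates 1 to 3 and at 129.9, 190.6 and 159.5 CPM in tamoxifen replicates 1 to 3. The lowest tamoxifen library held 4.51 times the level of the highest untreated one. The fitted rise was 6.03-fold (95% interval 4.73 to 7.69; log2 2.59, SE 0.15, edgeR adjusted p = 4.35e-05). The untreated libraries thus already contained Map3k14 RNA, 533 to 775 counts each, without tamoxifen. Whether the stop was intact in them was not measured. Counts per gene do not separate transgene from endogenous transcripts, so the rise checks the label but does not say which copy rose. The spread between libraries was 8.55% of the mean untreated and 19.0% with tamoxifen (coefficient of variation, n = 3 each).

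Nfkb2, the gene of p100 and p52, stood at 32.3, 33.4 and 45.1 CPM in the untreated libraries and at 377, 485.7 and 405 CPM with tamoxifen. It was the member with the smallest p, the 13th of all genes tested, with a fold of 11.4 (8.78 to 14.9; log2 3.51, SE 0.17, edgeR adjusted p = 1.97e-05). Relb, the gene of the partner of p52, went from 2.93, 1.57 and 4.72 CPM to 40.7, 51.2 and 42.3 CPM. Its fold of 14.4 was the largest of the 10 genes but less precise (8.41 to 24.7; log2 3.85, SE 0.34, edgeR adjusted p = 0.000280). The untreated libraries held 37 to 127 counts and had a coefficient of variation of 51.4%, against 12.7% with tamoxifen. Both genes were highest in replicate 3 among the untreated libraries and highest in replicate 2 among the tamoxifen libraries, as was Map3k14. With tamoxifen the number of Relb counts per Nfkb2 count was nearly the same in the 3 libraries, 0.108, 0.105 and 0.104, against 0.0908, 0.0469 and 0.105 untreated. The difference between groups in this ratio did not pass (log2 0.47, exact permutation test, two-sided, p = 0.20, n = 3 each, where 0.10 is the smallest p possible).

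Nfkb2 overlaps Psd on the opposite strand in GENCODE M21, and the strand setting of the counting is not known here. Psd had 78, 117 and 106 counts untreated and 578, 794 and 688 counts with tamoxifen (log2 2.91, SE 0.17, edgeR adjusted p = 4.34e-05). Per count of Nfkb2 there were 0.0872 to 0.148 counts of Psd untreated and 0.0752 to 0.0766 with tamoxifen. Without strand, reads of one cannot be told apart from reads of the other where they overlap. AC114539.1, a long noncoding RNA gene on the opposite strand that is not listed in the count tables, also overlaps Nfkb2. Among the other core genes, Map3k14 overlaps 1700028N14Rik on the same strand. On the opposite strand, Traf2 overlaps Gm13433 and Traf3 overlaps 4930595D18Rik. None of these overlapping genes has counts of its own here. Words of 50 bases shared with transcripts of other genes made up 14.9% of those of Nfkb2, the largest share among the 10 genes, with AC114539.1 sharing the largest number.

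The promoter windows of Nfkb2 are printed because Nfkb2 had the smallest p of the 10 genes and p52 and RelB bind kB sites. They come from RefSeq on GRCm38.p6, a later build than the mm9 of the counts, run from 250 bases before to 50 bases after each annotated start, and are written 5′ to 3′ on the gene's strand. Capitals mark matches to the 10-base kB consensus on either strand, overlapping matches merged. The window of the most upstream start, chr19:46304487-46304786 on the plus strand, holds 3 match positions, with first bases at -39, -38 and -11 relative to the start. GGGAATTCCC at -39 matches on both strands and overlaps the match at -38, and GGGGCTTTCC lies at -11. The window chr19:46305445-46305744, also plus, holds GGAATGTCCC at -236 and GGGACTTTCC at 10; the window of the remaining start repeats the latter match. For comparison, Traf3, which did not pass, has 1 match at -10 (chr12:111166120-111166419, plus strand), and Birc3, which rose, has none in its window (chr9:7873121-7873420, minus strand).

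Nfkb2, upstream start: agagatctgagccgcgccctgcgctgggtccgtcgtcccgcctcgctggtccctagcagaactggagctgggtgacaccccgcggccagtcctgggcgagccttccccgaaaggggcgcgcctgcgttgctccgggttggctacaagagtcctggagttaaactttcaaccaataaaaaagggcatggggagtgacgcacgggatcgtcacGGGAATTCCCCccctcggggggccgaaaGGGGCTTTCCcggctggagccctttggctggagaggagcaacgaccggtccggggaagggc
Nfkb2, downstream start: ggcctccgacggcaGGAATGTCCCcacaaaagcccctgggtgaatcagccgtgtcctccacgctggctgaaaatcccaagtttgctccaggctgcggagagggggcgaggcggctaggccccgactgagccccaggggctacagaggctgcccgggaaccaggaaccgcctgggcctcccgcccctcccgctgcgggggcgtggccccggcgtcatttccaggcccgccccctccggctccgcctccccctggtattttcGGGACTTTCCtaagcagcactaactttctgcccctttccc
Traf3: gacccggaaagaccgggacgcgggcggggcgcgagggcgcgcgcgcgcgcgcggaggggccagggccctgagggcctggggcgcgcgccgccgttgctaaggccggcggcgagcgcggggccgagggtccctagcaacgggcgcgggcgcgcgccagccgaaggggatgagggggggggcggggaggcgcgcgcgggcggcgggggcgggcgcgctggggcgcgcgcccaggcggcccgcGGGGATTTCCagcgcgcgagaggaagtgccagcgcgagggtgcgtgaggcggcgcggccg
Birc3: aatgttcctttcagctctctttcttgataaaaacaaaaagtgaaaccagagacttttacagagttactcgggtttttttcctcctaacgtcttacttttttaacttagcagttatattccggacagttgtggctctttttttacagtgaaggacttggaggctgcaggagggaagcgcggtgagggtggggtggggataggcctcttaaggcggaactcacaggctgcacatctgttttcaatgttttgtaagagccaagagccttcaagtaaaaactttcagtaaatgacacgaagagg

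Of the 8 core genes with a window in that table, Nfkb2 and Traf3 had a match and Map3k14, Chuk, Traf1, Traf2, Birc2 and Birc3 had none. Relb and Otud7b had no window. Of the 9631 tested genes with a window, 6.21% had a match in any of their windows, and of all 32851 windows of this length 4.51% hold one. A match describes letters only, and its absence says nothing of more distant sites.

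Chuk, the gene of IKK-alpha, which connects NIK to p100, stood at 57.8, 64.8 and 58.0 CPM untreated and at 48.3, 53.5 and 66.7 CPM with tamoxifen. The groups overlapped and the difference did not pass (log2 -0.10, SE 0.13, edgeR adjusted p = 0.645). Its 95% interval, -0.39 to 0.19, leaves room for a change of up to 0.761-fold or 1.14-fold. Without tamoxifen replicate 1 the difference was 0.0027.

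Among the genes of the complex that destroys NIK, the ubiquitin ligase gene Birc3 went from 31.3, 32.5 and 36.0 CPM to 109.95, 142 and 154 CPM. This was a rise of 4.06-fold (3.26 to 5.06; log2 2.02, SE 0.14, edgeR adjusted p = 9.24e-05). Birc2, its neighbour and close relative, went from 32.6, 38.2 and 30.7 CPM to 59.5, 55.2 and 59.6 CPM, a rise of 1.72-fold (1.46 to 2.02; log2 0.78, SE 0.10, edgeR adjusted p = 0.00190). All tamoxifen libraries were above all untreated libraries for both genes. Per library, Birc3 had 0.960, 0.849 and 1.17 counts per Birc2 count untreated and 1.85, 2.57 and 2.58 with tamoxifen. That ratio was 2.34 times higher with tamoxifen, and its groups did not overlap (exact permutation test, two-sided, p = 0.10, n = 3 each, the smallest p possible). Words of 50 bases shared with transcripts of other genes made up 1.49% of the Birc2 transcripts, with Birc3 sharing the largest number, and 7.56% of those of Birc3, with Gm7019 sharing the largest number, so reads could be split between these genes only over a small part of their length.

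Traf2, which brings the ligases to TRAF3, stood at 55.6, 52.3 and 50.8 CPM untreated and at 71.6, 80.8 and 71.3 CPM with tamoxifen. The groups did not overlap, and the rise was small, 1.41-fold (1.22 to 1.63; log2 0.50, SE 0.09, edgeR adjusted p = 0.00824). Traf3, the adaptor that holds NIK, stood at 100.8, 100.5 and 108 CPM untreated and at 106, 154 and 156 CPM with tamoxifen. Tamoxifen replicate 1 lay within the untreated range and the other tamoxifen libraries above it, and the difference of 1.34-fold did not pass (1.06 to 1.70; log2 0.43, SE 0.15, edgeR adjusted p = 0.0846). Without tamoxifen replicate 1 it passed (log2 0.59, SE 0.08, edgeR adjusted p = 0.00133), and it also passed with DESeq2 on all libraries (adjusted p = 0.0216).

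Traf1, a TRAF without the ligase domain of its relatives that binds TRAF2 and the cIAPs and is a known NF-kB target, was close to silent. It had 9, 8 and 25 counts in the untreated libraries, 0.447, 0.339 and 0.928 CPM, and 23, 73 and 74 counts with tamoxifen, 1.15, 3.39 and 3.27 CPM. All tamoxifen libraries were above all untreated ones, but tamoxifen replicate 1 exceeded untreated replicate 3 by only 1.24 times. The fold of 4.48 had a wide interval (1.83 to 10.9; log2 2.16, SE 0.56, edgeR adjusted p = 0.0335). The call was lost without untreated replicate 1 or 2 or tamoxifen replicate 2 or 3 (edgeR adjusted p 0.0978 to 0.131) and with limma voom (adjusted p = 0.0520).

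Otud7b, the gene of a deubiquitinase that protects TRAF3, was the member with the lowest value of the difference. It stood at 39.3, 35.9 and 39.5 CPM untreated and at 29.1, 35.9 and 30.05 CPM with tamoxifen. Tamoxifen replicate 2 and untreated replicate 2 were almost level, 35.93 against 35.94 CPM, so the groups were separated by far less than the spread within either. The difference did not pass (log2 -0.27, SE 0.11, edgeR adjusted p = 0.128), and its interval ran from -0.52 to -0.02.

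**Figure D2:**
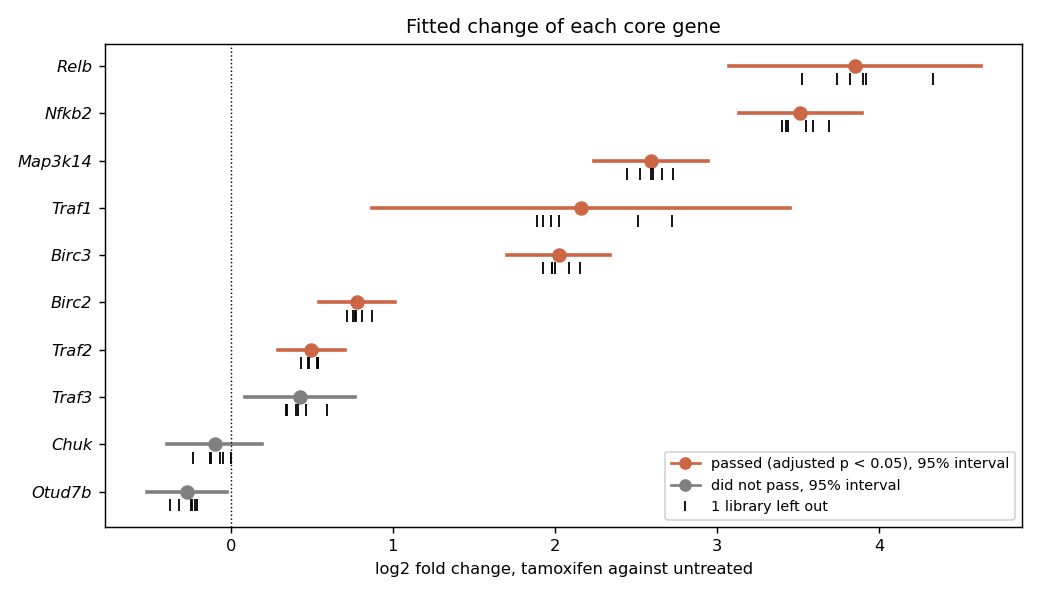
Fitted log2 fold change of each core gene, tamoxifen against untreated, with its 95% interval; orange genes passed at an adjusted p under 0.05, grey ones did not, and black ticks give the value with 1 library left out. Relb (3.85), Nfkb2 (3.51), Map3k14 (2.59) and Birc3 (2.02) stay far from 0 with any library left out, whereas Traf1 has the widest interval.

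The 7 genes that rose fell into a group with large changes (Relb, Nfkb2, Map3k14, Traf1 and Birc3, at least 4.06-fold) and a pair with changes under 2-fold (Birc2 and Traf2). Among all genes tested, 5.24% passed with at least 2-fold higher levels. Tamoxifen replicate 1, the library with the highest macrophage marker sum, was the lowest of the tamoxifen libraries for 5 of the 7 genes. These were Map3k14, Nfkb2, Relb, Traf1 and Birc3. How often all tested or all rising genes were lowest in this library was not counted. The pattern can therefore not be called particular to the core genes. That library differed more from tamoxifen replicates 2 and 3 (chi-square per degree of freedom 43.1 and 47.0) than these did from each other (14.2). Without tamoxifen replicate 1 the log2 rises were 2.73 for Map3k14, 3.59 for Nfkb2, 3.92 for Relb, 2.51 for Traf1 and 2.16 for Birc3. Each is larger than with all libraries, as must be so for genes that were lowest in the library left out. The part of the macrophage markers was not tested. In that fit 8 of the 10 core genes rose, against 12.8% of all genes tested.

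Levels of different genes can be compared only per length, here as CPM per kilobase of exon in GENCODE M21, which may differ from the annotation used in counting. In the untreated libraries the order was Traf3 (14.0 ± 0.552 CPM per kilobase, SD, n = 3), Chuk (11.8 ± 0.779), Traf2 (10.4 ± 0.483), Nfkb2 (8.06 ± 1.55), Birc2 (7.39 ± 0.854), Birc3 (6.64 ± 0.485), Otud7b (4.16 ± 0.216), Map3k14 (4.05 ± 0.346), Relb (0.791 ± 0.406) and Traf1 (0.0648 ± 0.0356). Nfkb2 and Birc2, Nfkb2 and Birc3, Birc2 and Birc3, and Otud7b and Map3k14 overlapped between libraries and had no clear order. With tamoxifen Nfkb2 led with 92.2 ± 12.3 CPM per kilobase, followed by Birc3 (26.99 ± 4.52), Map3k14 (24.4 ± 4.63), Traf3 (18.8 ± 3.82), Traf2 (14.6 ± 1.05), Birc2 (12.7 ± 0.550), Relb (11.5 ± 1.46), Chuk (11.04 ± 1.86), Otud7b (3.45 ± 0.404) and Traf1 (0.295 ± 0.143). The values of Birc3 and Map3k14 overlapped, as did those of Map3k14 and Traf3, and of Traf3 and Traf2. Birc2, Relb and Chuk each overlapped with the others of these. Map3k14 thus stood below the brake genes Traf3, Traf2, Birc2 and Birc3 per length without treatment, and with tamoxifen its mean stood above those of Traf3, Traf2 and Birc2. Its counts may include transgene transcripts, whose length is not known here, so its place per length with tamoxifen is uncertain. Whether NIK from the transgene keeps the site that TRAF3 binds is not known here either.

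The ratio of Map3k14 counts to the counts of each brake gene within a library does not depend on library scaling. Map3k14 had 0.263, 0.241 and 0.267 counts per Traf3 count in the untreated libraries and 1.22, 1.24 and 1.03 with tamoxifen, 4.51 times more. Against Traf2 the ratio went from 0.477, 0.464 and 0.567 to 1.81, 2.36 and 2.24 (4.24 times), and against Birc2 from 0.813, 0.634 and 0.937 to 2.18, 3.46 and 2.68 (3.47 times). Against Birc3, which rose itself, it went from 0.846, 0.747 and 0.7998 to 1.18, 1.34 and 1.04, only 1.48 times. Against Otud7b, the gene with the lowest difference, it went from 0.675, 0.675 and 0.729 to 4.47, 5.30 and 5.31, 7.24 times. The groups did not overlap for any of the 5 ratios (exact permutation test, two-sided, p = 0.10 each, also after Benjamini-Hochberg adjustment over the 5, n = 3 each; 0.10 is the smallest p this design allows). Since these counts are not per length, a ratio of 1 does not mark equal levels: per kilobase Map3k14 stood below Birc3 in tamoxifen replicate 1 (19.8 against 21.95 CPM per kilobase) and replicate 3 (24.4 against 30.7). The ratios compare changes in RNA and say nothing of the amounts of protein.

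**Figure D3:**
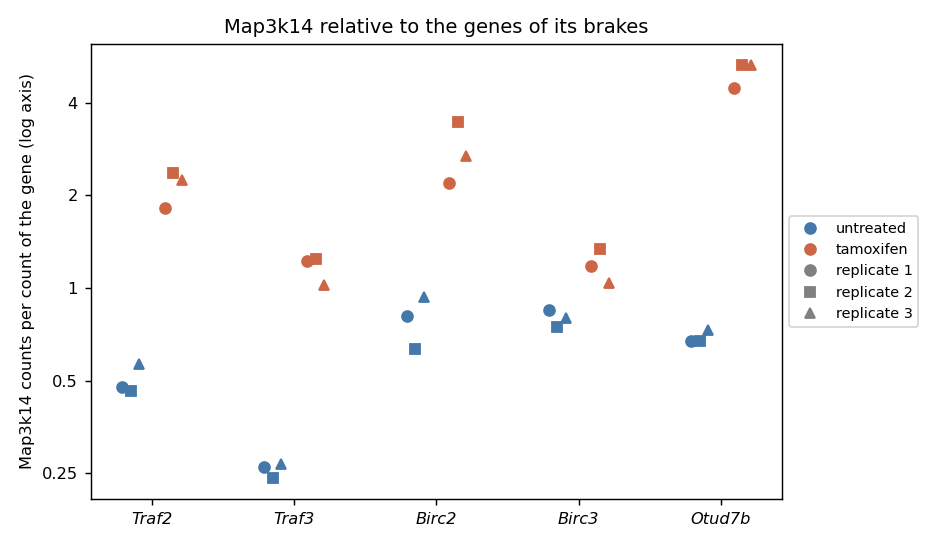
Counts of Map3k14 per count of each brake gene, on a log axis, for 3 untreated (blue) and 3 tamoxifen libraries (orange); marker shapes give the replicate. The groups do not overlap for any of the 5 genes; Birc3 shows the narrowest gap (1.48 times) and Otud7b the widest (7.24 times).

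Around the core genes, 6 lists of pathway genes were described by their counts, beside the median log2 difference of -0.0025 over all genes tested. Of the 50 tested genes of all lists together, 7 rose and 1 fell, where 8.96% of all genes tested rose and 8.24% fell. The shares of all genes at an unadjusted p under 0.05 are given with the core genes above. No list was tested against these shares, so single calls describe single genes and not a list. Of 10 receptors that can signal through NIK, 7 were expressed enough to be tested; 1 rose and none fell (2 higher and 1 lower at an unadjusted p under 0.05; DESeq2 2 and 0, limma voom 1 and 0), with a median log2 difference of 0.16. The gene that rose was Cd40, a receptor gene of antigen-presenting cells, with 0, 0 and 6 counts untreated and 19, 26 and 48 counts with tamoxifen (log2 4.03, SE 0.93, edgeR adjusted p = 0.0210). Its call was lost without untreated replicate 1 or 2 or tamoxifen replicate 3 (edgeR adjusted p 0.0670 to 0.0820). Its log2 value ran from 3.49 to 4.25 with any library but untreated replicate 3 left out. Without that library, the only untreated one with a count, the fitted value was 7.95, which depends on the prior count and is no bound. The most abundant receptor genes, those of TNF receptor 2 (Tnfrsf1b, 94.2 ± 40.6 and 74.3 ± 7.36 CPM, SD, n = 3) and of the lymphotoxin beta receptor (Ltbr, 87.9 ± 6.44 and 73.8 ± 4.12 CPM), did not pass (edgeR adjusted p = 0.413 and 0.103), and were named after their values were seen.

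Of 12 ligands of these receptors, 7 were tested, 1 rose and 1 fell, with a median log2 difference of 0.23 (1 higher and 2 lower at an unadjusted p under 0.05). Ltb, the gene of lymphotoxin beta, went from 2.88, 3.48 and 4.16 CPM to 96.2, 134 and 108 CPM (log2 4.999, SE 0.19, edgeR adjusted p = 5.42e-06). Cd40lg, the gene of the CD40 ligand, went the other way, from 44, 60 and 42 counts to 3, 0 and 4 (log2 -4.19, SE 0.69, edgeR adjusted p = 0.00522). The groups did not overlap for either gene. CD40 and its ligand thus moved in opposite directions at the RNA level, both at low counts.

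None of 16 genes of p100 processing and NIK turnover passed in edgeR, all 16 being tested (1 higher and 1 lower at an unadjusted p under 0.05; DESeq2 called 1, Otub1, and limma voom none, and Otub1 rose in edgeR with upper quartile scaling). The list holds, among others, the SCF ubiquitin ligase genes that mark p100 for processing. Its median log2 difference was 0.09. Btrc, the gene of the F-box protein that recognises phosphorylated p100, named after its values were seen, stood at 35.1 ± 3.51 CPM untreated and 26.6 ± 4.69 CPM with tamoxifen (SD, n = 3; log2 -0.40, edgeR adjusted p = 0.0962). Without tamoxifen replicate 1 it passed as lower (log2 -0.55, edgeR adjusted p = 0.00989).

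Of 10 other TRAF proteins and TRAF binding genes, 1 rose and none fell (median log2 0.07). Tank, the gene of a TRAF binding adaptor of the kinases TBK1 and IKK-epsilon, went from 44.3, 36.4 and 43.1 CPM to 61.6, 74.9 and 95.3 CPM (log2 0.90, SE 0.16, edgeR adjusted p = 0.00779). Of the other IAP family genes, 7 of 8 were tested, 2 rose and none fell (median log2 0.18). They were Birc5, the gene of the mitotic protein survivin (log2 0.43, SE 0.10, edgeR adjusted p = 0.0233), and Naip2, the gene of an inflammasome sensor (log2 0.45, SE 0.10, edgeR adjusted p = 0.0199). Neither call was kept without untreated replicate 1 or 2 or tamoxifen replicate 2 (edgeR adjusted p 0.0644 to 0.0988), and that of Naip2 was also lost without tamoxifen replicate 3 (0.0570). Both were lost with a required change above 1.5-fold. The Naip genes are close copies of each other, so reads could have been split between them.

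Of 10 lymphoid targets of p52 and RelB, 5 were tested, 3 rose and none fell (median log2 0.50). Besides Ltb, which is on both lists, Vcam1, the gene of an adhesion protein, went from 76.2, 82.7 and 75.5 CPM to 930.2, 456 and 457 CPM (log2 2.98, SE 0.28, edgeR adjusted p = 0.000370), and was highest in tamoxifen replicate 1, the library with the highest macrophage marker sum. Without that library its log2 rise was 2.55 (edgeR adjusted p = 1.07e-06). Icosl, the gene of the ICOS ligand, went from 30.1, 34.8 and 37.5 CPM to 40.5, 52.4 and 50.9 CPM (log2 0.49, SE 0.13, edgeR adjusted p = 0.0356). Its call was lost without untreated replicate 1 or 2 or tamoxifen replicate 2 or 3 (edgeR adjusted p 0.0985 to 0.136). The chemokine genes Ccl19 and Ccl21a, textbook targets in lymphoid stroma, had no count in any library.

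**Figure D4:**
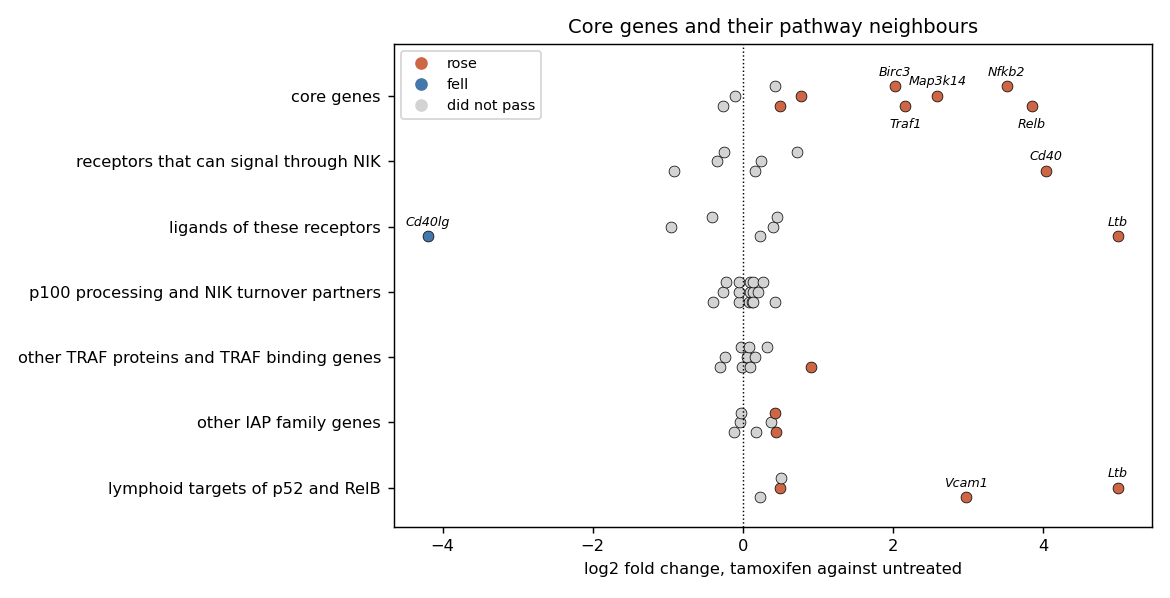
Fitted log2 fold change, tamoxifen against untreated, of the 10 core genes and of the tested genes of 6 pathway lists, 1 point per gene; orange points rose, blue fell and grey did not pass at an adjusted p under 0.05. The core genes spread from -0.27 to 3.85, and the p100 processing genes from -0.40 (Btrc) to 0.43 (Nlrp12). Ltb (4.999) and Cd40lg (-4.19) stand at opposite ends of the ligand list.

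The genes whose profile was most like that of Map3k14 were found by the root mean square difference between centred log2 CPM profiles over the 6 libraries, among 11042 other genes with an average log2 CPM of at least 1. They were Ralgds, a gene of Ral signalling (difference 0.104), B3gnt3 (0.139), Ddx60 (0.182), Nfkbie, the gene of the NF-kB inhibitor IkB-epsilon (0.193), and Sbf2 (0.201). Ralgds, for example, stood at 15.6, 12.1 and 15.1 CPM untreated and at 71.3, 104 and 99.8 CPM with tamoxifen. Among the core genes the nearest to Map3k14 were Birc3, at rank 38, and Nfkb2, at rank 102. For Nfkb2 the nearest profiles were those of Rrad (0.124), Lpxn (0.134), Clec5a (0.229), Slc39a4 (0.235) and Plxna1 (0.246), with Relb at rank 24 (0.403) and Map3k14 at rank 44 (0.488). With 2 groups of 3 libraries, the likeness mostly reflects the size of the difference between the groups.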

How the data were processed

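RNA was measured in 6 libraries, 3 untreated and 3 tamoxifen, grouped by the sample titles. The deposited values are the authors' raw counts, 1 per gene symbol. The submitters' processing notes name mm9, TopHat2 2.1.0, featureCounts, FastQC and DESeq2, with no roles. The sources used here do not give the annotation, the strand setting or the handling of multiply mapped reads. Counts were scaled with TMM (factors 0.986 to 1.01), filtered with filterByExpr (minimum count 10; 12729 genes kept) and fitted with edgeR 4.0.16 (R 4.3.3; glmQLFit, glmQLFTest, group only, two-sided, Benjamini-Hochberg over all genes, threshold 0.05). SE was obtained by dividing the size of the log2 change by the root of the F statistic. The fit was also run on counts simulated from its own means and dispersions, which cannot show that the model suits these libraries. Within-group library pairs differed beyond sampling noise (chi-square per degree of freedom 11.2 to 47.0). Members, lists and rules were chosen with earlier results of these data known. Named genes are all members, up to 4 passing genes with the smallest p per list, and the 5 nearest profiles of Map3k14 and Nfkb2. Alternatives were DESeq2 1.42.0, voom in limma 3.58.1, scaling by RLE, by upper quartile or not at all, testing all genes with counts or those with CPM above 1 in 3 or more libraries, a required change above 1.5-fold, a replicate block and leaving out each library. Profiles used log2 CPM with a prior count of 2.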

Additional observations from a re-analysis of the deposited data

How the results depend on the processing

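Map3k14, Nfkb2, Relb and Birc3 kept their direction and their call under all 15 alternatives, with log2 values of 2.45 to 2.73, 3.40 to 3.69, 3.53 to 4.33 and 1.93 to 2.16. With a required change above 1.5-fold (glmTreat) only these 4 of the 7 risen core genes passed, and Traf1 (2.16), Traf2 (0.50) and Birc2 (0.78) did not; 420 of all genes rose, 227 fell, and 2 pathway list genes rose. Traf1 also missed with limma voom (2.11), and leaving out 1 library its log2 value ran from 1.89 to 2.72. Traf3 passed with DESeq2 (0.43) and ran from 0.34 to 0.59 with 1 library left out. Chuk, which never passed, ran from -0.23 to 0.0027 and changed sign only without tamoxifen replicate 1. Leaving out 1 library gave 6 to 8 core genes that rose and none that fell, 586 to 1657 genes overall that rose (lowest without untreated replicate 1, highest without tamoxifen replicate 1) and 443 to 1592 that fell, and 3 to 8 pathway list genes that rose and 1 to 3 that fell, against 7 and 1 with all libraries. The cause of these shifts was not tested; fits without a library also have fewer samples. Deviations of same-numbered libraries correlated at 0.118, -0.115 and 0.106, and those of differently numbered libraries at -0.168 to 0.140. With 3 libraries per group, these values can neither show nor exclude a pairing by replicate number. With the replicate block 7 core genes rose and none fell, and 959 genes overall rose and 833 fell, against 1140 and 1049. Birc5 lost its call with the replicate block (log2 0.43, edgeR adjusted p = 0.0547), which left 1 of 2 risen genes of the IAP list. Cd40 did not reach the stricter filter. Depth limits Traf1 (42 counts over the untreated libraries) and Cd40 (6).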
